A study of Homo sapiens with 8 samples.

Results

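The 2 arrays described here carry RNA of lipid-loaded HepG2 cells that were treated with linalool, each set against RNA of untreated HepG2 cells. They are 2 of the 8 arrays of the study and were chosen by their titles alone, so no measured value entered the choice. HepG2 is an established human cell line from a liver tumour that keeps many functions of hepatocytes. Linalool-treated cells (2 arrays) had taken up fatty acid for 24 h from 400 µM oleate bound to albumin at a ratio of 6.6 to 1, and then spent 24 h in serum-free medium with 1 mM linalool. Fenofibrate-treated cells (3 arrays) were loaded in the same way and received 100 µM fenofibrate in place of linalool. Lipid-loaded cells (3 arrays) went through the same loading and the same serum-free medium without a compound. The protocol names oleate only, while the treatment field of the labels names palmitate beside it, and it is unsettled here which fatty acid the cells received. Untreated cells formed the other channel of every array, and the labels do not say whether they too spent a day without serum. In the comparison of linalool-treated with untreated cells the compound, the fatty acid and the medium therefore cannot be told apart, and the differences from lipid-loaded cells are given beside it for that reason. Linalool reached the cells at another dose than fenofibrate, so values of the 2 compounds stand side by side and are not compared at matched doses.

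Linalool is a scented terpene alcohol that plants such as lavender and coriander make, and it has been studied as a ligand of PPARα. PPARα is a nuclear receptor of hepatocytes that, bound to fatty acids or to fibrate drugs, switches on genes of fatty acid uptake and oxidation, and fenofibrate is such a drug. Hepatocytes also answer reactive compounds through NRF2, a transcription factor that KEAP1 holds back until its cysteines are modified, and they answer a lack of amino acids or misfolded protein through the integrated stress response, in which ATF4 raises genes of amino acid transport and synthesis.

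Values are log2 ratios between a treated sample and untreated cells, with the sign as deposited, and 1 unit stands for a 2-fold ratio. The labels do not say which channel is the numerator. The words positive and negative refer to that sign alone, and nothing below says in which cells a transcript was more abundant. A difference between groups is linalool minus the other group on the same scale, and it carries the same doubt about direction. Of 29187 probes, 25053 had 1 gene symbol, and 18819 genes were tested in 1 fit over the 8 arrays with limma, with a call at a Benjamini-Hochberg adjusted p under 0.05. The median standard error (SE) of a gene was 0.236 for linalool-treated cells. Each SE rests on the spread within groups over all 8 arrays, so a wide spread in another group also enters it. The median standard deviation between the linalool arrays themselves was 0.183. The small number of arrays limits the precision as well. On every array the untreated cells carried Cy5 and the treated cells Cy3, with no dye swap, so dye effects stay in each ratio against untreated cells. Fenofibrate replicate 3 stood apart, with r of 0.0759 and 0.0706 across genes to linalool replicates 1 and 2, against 0.281 to 0.400 for the other 5 arrays of the fenofibrate and lipid-loaded groups.

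Among the genes with the smallest p in linalool-treated cells were TIMP1, MT2A, S100P and SLC7A11 with positive ratios and SCN8A, GUCY1B1 and MVK with negative ones. No gene passed the test against untreated cells: limma called 0 of 18819 genes (0.0%), with a smallest adjusted p of 0.0643. At an unadjusted p under 0.05 stood 2326 genes, which is 12.4% of all tested, 1260 of them positive (6.7%) and 1066 negative (5.66%). These shares are the background for every count of list members below. The call count depended on the setting. Scaling all arrays to 1 spread gave 124 calls and array weights gave 99, with 90 genes in both, and leaving out fenofibrate replicate 3 gave 6. All genes named here are thus described by their values, and none is said to have changed.

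Across genes, the 2 linalool arrays correlated at r = 0.342, and genes are not independent replicates. Both arrays had a positive ratio for 7257 genes (38.6%) and a negative one for 5238 (27.8%), so that 66.4% of genes shared their sign. Their standard deviations over genes were 0.440 and 0.432, against 0.434 to 0.687 for the other 6 arrays.

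**Figure D1:**
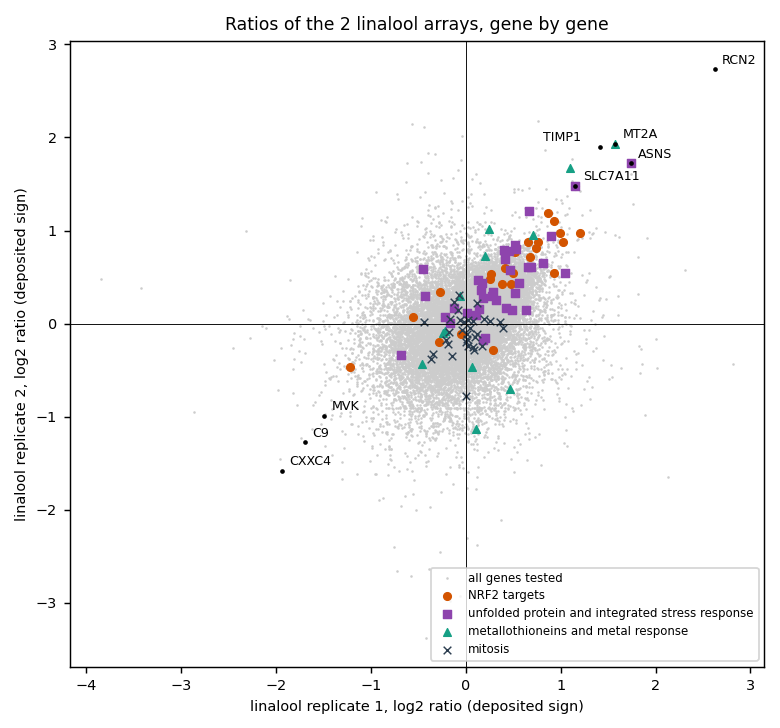
Ratio of each tested gene on linalool replicate 1 (x axis) and linalool replicate 2 (y axis), in log2 units with the deposited sign. Each point is a gene, coloured points are members of 4 gene lists, and 8 genes are labelled. NRF2 targets and stress response genes lie mostly at the upper right, while mitosis genes gather around 0.

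The 10 genes with the smallest p on the positive side held a protease inhibitor, metal and calcium binders, a cystine transporter and a vitamin D enzyme. TIMP1, the secreted inhibitor of matrix metalloproteinases, had ratios of 1.42 and 1.90 on the linalool arrays, against 0.71, 0.46 and 0.14 with fenofibrate and 1.03, 0.93 and 0.78 in lipid-loaded cells. Both linalool values lay above all 6 others (mean 1.66, SE 0.21, n = 2, limma adjusted p = 0.0643). MT2A, a metallothionein that binds zinc and copper, stood at 1.58 and 1.93 with linalool, against 0.66, 0.58 and −0.14 with fenofibrate and 1.34, 0.63 and 0.75 in lipid-loaded cells. S100P, a calcium-binding protein of epithelial cells, stood at 1.74 and 1.61, against 0.71, 0.56 and −0.14 with fenofibrate and 1.05, 0.43 and 0.67 in lipid-loaded cells. In both genes the linalool values again exceeded every other array, and the adjusted p was 0.0643 for each. Here and below, most named genes were picked for small p or after their values were seen, which favours such separation. The share of all genes with both linalool values outside the other 6 arrays was not counted.

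SLC7A11, the cystine importer that feeds glutathione synthesis, had ratios of 1.16 and 1.48 with linalool. It had 0.30, −0.12 and 0.07 with fenofibrate and 0.93, 0.74 and 0.51 in lipid-loaded cells (mean 1.32, SE 0.20, n = 2, limma adjusted p = 0.0961). The 3 groups did not overlap in this average of 2 probes, but each probe alone overlapped with lipid-loaded cells. The first had 0.87 and 1.19 with linalool and 0.95 on lipid-loaded replicate 2. The second had 1.44 and 1.78 with linalool and 1.64 on lipid-loaded replicate 1. CD14, a co-receptor of bacterial lipopolysaccharide found on monocytes and also made by hepatocytes, stood at 1.22 and 1.17, against 0.00, 0.19 and 0.42 with fenofibrate and 0.22, 0.06 and 0.00 in lipid-loaded cells. CYP24A1, the enzyme that inactivates vitamin D, stood at 1.13 and 1.77, against −0.41, 0.44 and −0.06 with fenofibrate and −0.65, −0.59 and −0.25 in lipid-loaded cells. Its sign thus differed between all linalool and all lipid-loaded arrays. SH3RF1, a scaffold and ubiquitin ligase of the JNK pathway, had 1.77 and 1.28 with linalool and from −0.60 to 0.25 on the other 6 arrays. GCKR, the inhibitor protein of glucokinase, had 1.38 and 1.03 with linalool, and TMC6, a membrane protein of the TMC family, had 1.05 and 1.17. Their values on the other arrays reached 0.73 and 0.75 at most.

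RCN2, which binds calcium inside the endoplasmic reticulum, was the gene with the largest mean ratio, 2.68 (SE 0.36, n = 2, limma adjusted p = 0.0643), and its values overlapped with those of fenofibrate-treated cells. It stood at 2.63 and 2.73 with linalool, against 2.97, 2.94 and 1.10 with fenofibrate and 3.20, 3.01 and 2.96 in lipid-loaded cells. Its 2 probes also differed widely: 4.87 and 5.14 with linalool for the first, and 0.39 and 0.33 for the second. The first probe was high on every array, from 3.12 to 5.59.

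On the negative side, GUCY1B1, the beta subunit of the soluble guanylate cyclase that senses nitric oxide, stood at −1.30 and −1.67 with linalool. It had −0.18, −0.32 and 0.34 with fenofibrate and −0.30, −0.27 and −0.33 in lipid-loaded cells, so that both linalool values lay below all others (mean −1.48, SE 0.21, n = 2, limma adjusted p = 0.0643). GUCY1B2 stood at −1.21 and −1.08, against 0.07, −0.17 and 0.33 with fenofibrate and −0.45, −0.61 and −0.16 in lipid-loaded cells. SCN8A, a sodium channel of nerve cells, stood at −1.28 and −1.34 with linalool and between −0.84 and 0.22 elsewhere (adjusted p = 0.0643). CACNG6, an accessory subunit of calcium channels, had −1.09 and −1.06 with linalool, and its other 6 values lay between −0.31 and −0.11.

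MVK, mevalonate kinase of the cholesterol pathway, had ratios of −1.49 and −0.99 with linalool, against 0.09, −0.23 and 0.42 with fenofibrate and 0.22, 0.46 and 0.04 in lipid-loaded cells (mean −1.24, SE 0.22, n = 2, limma adjusted p = 0.128). C9, which forms the pore of the complement attack complex, stood at −1.69 and −1.28, against 0.06, 0.51 and −0.68 with fenofibrate and −1.02, −0.51 and −0.86 in lipid-loaded cells. ATL3, a GTPase that shapes the endoplasmic reticulum, had −1.52 and −1.08 with linalool and between −0.65 and 0.09 on the other arrays. PLEKHG7 had −1.05 and −1.01 with linalool and between −0.73 and −0.40 on the others. SEZ6, a nerve cell membrane protein, and CXXC4, an inhibitor of Wnt signalling, did overlap with the lipid-loaded group: SEZ6 had −0.95 and −1.61 with linalool and values from −1.37 to −0.83 in lipid-loaded cells, and CXXC4 had −1.93 and −1.58 with linalool and −0.67, −1.76 and −2.16 in lipid-loaded cells. All 20 genes were among the 124 called with arrays scaled to 1 spread and the 99 called with array weights. They were picked for the smallest p on the same arrays, so this is no separate support for them.

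**Figure D2:**
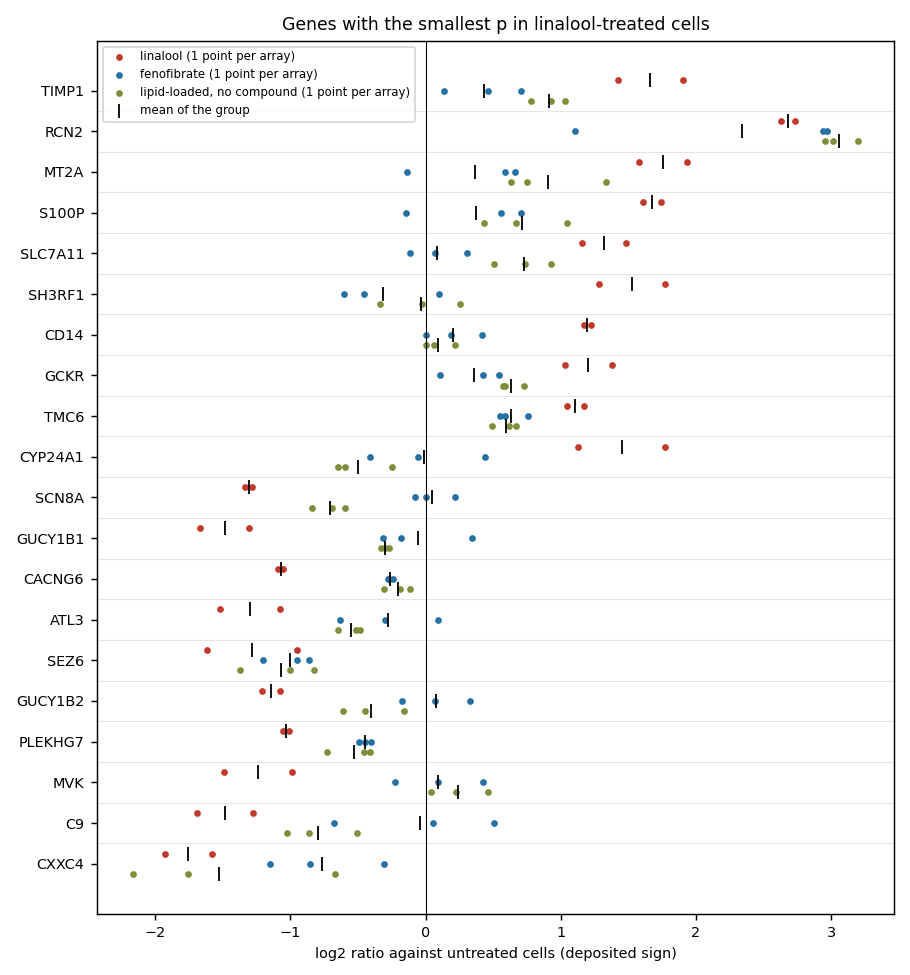
Log2 ratio against untreated cells on each array (x axis, deposited sign) for the 10 positive and 10 negative genes with the smallest p in linalool-treated cells. Points are single arrays and black marks are group means. For RCN2, SEZ6 and CXXC4 the groups overlap, while for TIMP1, MT2A, GUCY1B1 and MVK both linalool points lie outside the other 6.

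The promoters of 3 genes with positive ratios are shown because each holds the DNA element of the stress pathway that its gene list stands for. They come from RefSeq (GRCh38.p14) and give the 250 bases before the gene's start, 5′ to 3′ on the gene's strand, with matches on either strand in capitals. The 3 were chosen after their values and matches were seen. The window of MT2A is chr16:56608334-56608583 on the plus strand and holds 5 metal response elements (TGCACNC), the element that the zinc-sensing factor MTF1 binds.
MT2A: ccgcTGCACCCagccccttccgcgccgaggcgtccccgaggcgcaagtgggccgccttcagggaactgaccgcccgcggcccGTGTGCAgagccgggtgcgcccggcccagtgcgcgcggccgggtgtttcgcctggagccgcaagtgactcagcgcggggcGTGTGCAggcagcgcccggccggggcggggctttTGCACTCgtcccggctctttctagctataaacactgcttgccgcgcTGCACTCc
The window of ASNS is chr7:97872409-97872658 on the minus strand and holds 1 match to the ATF4 response element (TGATGNAA), from base −68 to −61 before the start.
ASNS: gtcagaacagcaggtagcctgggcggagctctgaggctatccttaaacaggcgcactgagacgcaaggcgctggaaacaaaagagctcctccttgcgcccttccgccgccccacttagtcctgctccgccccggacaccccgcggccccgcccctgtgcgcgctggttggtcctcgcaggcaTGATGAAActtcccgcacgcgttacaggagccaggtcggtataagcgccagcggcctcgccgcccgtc
The window of TXNRD1 is chr12:104215529-104215778 on the plus strand and holds 1 match to the NRF2 element (TGACNNNGC), from base −99 to −91.
TXNRD1: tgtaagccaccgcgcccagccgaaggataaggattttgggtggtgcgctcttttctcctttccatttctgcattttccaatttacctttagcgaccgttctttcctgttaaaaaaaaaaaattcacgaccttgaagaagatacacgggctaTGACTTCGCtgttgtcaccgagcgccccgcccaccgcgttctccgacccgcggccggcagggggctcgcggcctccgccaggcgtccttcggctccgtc

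Counted over the full windows of 300 bases, which add the first bases of the gene, such matches are common. The NRF2 element was found in 5 of the 19 NRF2 targets with a window and in 13.6% of 27305 genes with a window. The ATF4 response element was found in 4 of 34 stress response genes and in 3.67% of all, and the metal response element in 5 of 8 genes of metallothioneins and metal response and in 11.9% of all. The window of SRXN1, an NRF2 target with larger ratios than TXNRD1, held 0 matches to the NRF2 element. Matches were not limited to the list an element stands for: the NRF2 element was found in 10 of the 34 stress response genes and 4 of the 8 metallothionein and metal response genes, and the metal response element in 6 of the 19 NRF2 targets. A match describes letters in a window and is neither a binding site nor a cause of the values.

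Over the means of the 2 linalool arrays, NRF2 targets had the highest median of the 39 gene lists, while ribosomal protein genes had a higher one on linalool replicate 1. The list median was 0.51 and 0.57 on the 2 linalool arrays, and 18 of 24 measured members were positive on both, against 38.6% of all genes. At an unadjusted p under 0.05 stood 14 positive members and 1 negative member, and 0 passed over all genes. SRXN1, which repairs oxidised peroxiredoxins, had ratios of 0.87 and 1.18 with linalool, against 0.62, 0.40 and 0.30 with fenofibrate and 0.94, 0.36 and 0.55 in lipid-loaded cells. ABCC2, an exporter of bile pigments and conjugates, had 1.20 and 0.97, against 0.62, 0.51 and 0.24 with fenofibrate and 0.88, 0.65 and 0.62 in lipid-loaded cells. FTL, the ferritin light chain, stood at 0.99 and 0.98. TXN, thioredoxin, stood at 1.03 and 0.87, and TXNRD1, the reductase that recharges it, at 0.76 and 0.87. OSGIN1, a growth inhibitor induced by oxidative stress, stood at 0.93 and 1.10, and GCLM, the modifier subunit of glutathione synthesis, at 0.68 and 0.72. NQO1, a quinone reductase that is a standard NRF2 target, went the other way with −1.22 and −0.46. HMOX1, haem oxygenase, had 0.26 and 0.48. The sensor KEAP1 had 0.27 and 0.53 and NFE2L2, which encodes NRF2 itself, 0.38 and 0.43.

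The list median was 0.58 over linalool means, 0.38 with fenofibrate and 0.68 in lipid-loaded cells, and the median difference from lipid-loaded cells was 0.00, with 12 members positive and 12 negative. SLC7A11 was the single member with an unadjusted p under 0.05 in that difference (0.59, SE 0.26, limma adjusted p = 0.421). FTL, TXN and TALDO1, a pentose phosphate enzyme, had means that differed from lipid-loaded cells by 0.08 at most. With arrays brought to 1 spread, 8 of the 24 passed against untreated cells, and 6 did so with array weights.

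Genes of the integrated stress response and the unfolded protein response had mostly positive ratios. Of 37 measured members 33 had a positive mean, against 54.3% of all genes, 29 were positive on both arrays and 13 stood at an unadjusted p under 0.05, all positive, with list medians of 0.41 and 0.36. Over group means, the list median was 0.32 with linalool, 0.25 with fenofibrate and 0.63 in lipid-loaded cells. The 9 amino acid and one-carbon genes of the list were all positive on both arrays, with medians of 0.82 and 0.69. The 10 chaperones and folding enzymes of the endoplasmic reticulum had medians of 0.16 on each array, 8 had a positive mean and 0 stood at an unadjusted p under 0.05. This division covers 19 of the 37 members, was made after the values were seen and carries no test. In lipid-loaded cells the medians over group means were 0.72 for the first set and 0.55 for the second. The first set had a median difference from lipid-loaded cells of −0.11, with 3 members positive and 6 negative.

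ASNS, asparagine synthetase, had ratios of 1.74 and 1.73 with linalool, against 0.84, 0.84 and −0.45 with fenofibrate and 1.55, 1.09 and 0.89 in lipid-loaded cells (mean 1.73, SE 0.30, n = 2, limma adjusted p = 0.125). Both linalool values lay above all others. This SE reflects the spread shared over all groups and not the small gap between the linalool arrays. Within the fenofibrate group, replicate 3 stood apart at −0.45. PSAT1 of serine synthesis stood at 0.89 and 0.94, against 0.71, 0.67 and 0.79 with fenofibrate and 1.39, 0.87 and 0.81 in lipid-loaded cells, where the groups overlap. TRIB3, a pseudokinase induced by ATF4 and CHOP, had 0.67 and 1.21 with linalool. MTHFD2 of mitochondrial folate metabolism had 0.82 and 0.65, CTH, which makes cysteine, 1.05 and 0.55, and SESN2, a sensor of leucine, 0.52 and 0.84. ATF4 itself stood at 0.29 and 0.34, and DDIT3, which encodes CHOP, at 0.69 and 0.61. Among the chaperones, HSPA5, the main folding chaperone of the compartment, had −0.43 and 0.29, and HSP90B1 had 0.11 and 0.09. CALR, calreticulin, had −0.68 and −0.34 with linalool and a mean of 1.11 in lipid-loaded cells.

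**Figure D3:**
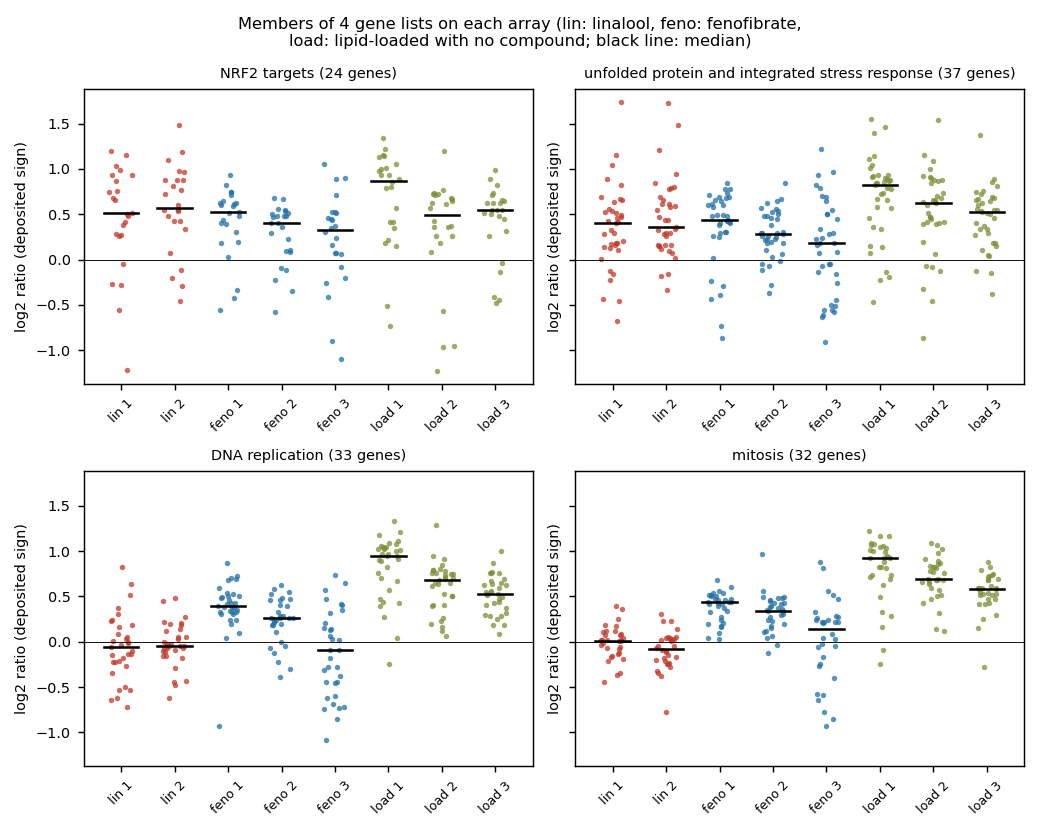
Log2 ratios of the members of 4 gene lists (y axis, deposited sign) on each of the 8 arrays, with 1 point per gene and a black line at the median. NRF2 targets and stress response genes have medians above 0 with linalool as in the other groups, though single members lie below 0. DNA replication and mitosis genes have medians between −0.08 and 0.01 with linalool and from 0.53 to 0.95 in lipid-loaded cells.

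Metallothioneins had both high and low members. MT2A, MT1B and MT1E stood at an unadjusted p under 0.05 with positive ratios, among 12 measured genes of the list with medians of 0.15 and 0.11. MT1B had 1.10 and 1.67 with linalool, against −0.64, 0.51 and −0.20 with fenofibrate and −0.41, −0.27 and −0.46 in lipid-loaded cells, so that both linalool values lay above all others. MT1E had 0.71 and 0.95, against 0.70, 0.63 and 0.62 with fenofibrate and 1.48, 0.70 and 0.77 in lipid-loaded cells. MT1M had 0.25 and 1.02, MT1X −0.06 and 0.30 and MT3 −0.22 and −0.08. MTF1, the factor that senses zinc, had 0.47 and −0.71, of opposite signs. SLC30A1, the zinc exporter, had 0.20 and 0.72, and SLC30A10, a manganese exporter, −0.46 and −0.44. Metallothionein genes have near-identical copies, as do the UGT1A, glutathione transferase, histone, olfactory receptor, HSPA1 and some ribosomal protein genes. Whether a probe separates such copies was not tested, and their values are uncertain for that reason.

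Heat shock genes had medians of 0.34 on both arrays, with 3 of 18 members positive at an unadjusted p under 0.05. Over group means their median was 0.32 with linalool and 0.70 in lipid-loaded cells. HSPA4, a nucleotide exchange factor of HSP70, had 0.66 and 0.56, and DNAJB1, a co-chaperone, had 0.40 and 0.33 with linalool against values from −0.84 to −0.66 with fenofibrate and from −0.96 to −0.06 in lipid-loaded cells. Immediate early genes had medians of 0.33 and 0.45, with 4 of 18 at an unadjusted p under 0.05. EGR1, a growth factor response gene, stood at 0.84 and 1.87 with linalool, against 0.86, 0.08 and −0.75 with fenofibrate and 0.07, −0.40 and 0.47 in lipid-loaded cells. The list's median over group means was 0.33 with linalool, 0.09 with fenofibrate and 0.05 in lipid-loaded cells. Of 18 p53 targets, GADD45A, which acts in DNA repair, had 0.58 and 0.84 and PHLDA3, an inhibitor of AKT, −0.61 and −0.54. Interferon genes had medians of −0.04 and −0.12, with OAS1, an antiviral sensor of RNA, at 0.56 and 0.90. Acute phase genes had medians of −0.07 and 0.02. In that list SERPINA3, antichymotrypsin, had 1.18 and 0.90, and CRP, the C-reactive protein, −0.87 and −0.81, each close to lipid-loaded cells (differences of 0.17 and −0.01).

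PPARα targets and genes of fatty acid oxidation had medians closer to 0 with linalool than in lipid-loaded cells. Of 38 measured members, 24 had a positive mean, 21 were positive on both arrays and 3 stood at an unadjusted p under 0.05. The median was 0.18 and 0.09 on the linalool arrays. Over group means it was 0.15 with linalool, 0.28 with fenofibrate and 0.59 in lipid-loaded cells. ETFB, which passes electrons from oxidation to the respiratory chain, had 0.56 and 0.48, ACSL1, which activates fatty acids, 0.50 and 0.44, and DECR1, a reductase for unsaturated fatty acids, 0.63 and 0.31. PPARA itself had 0.46 and 0.41 with linalool, against 0.55, 0.23 and 0.02 with fenofibrate and 0.42, 0.13 and 0.42 in lipid-loaded cells (mean 0.43, SE 0.20, limma adjusted p = 0.406).

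The well known fibrate responsive genes gave no common sign with linalool. CPT1A, the gate of mitochondrial oxidation, stood at 0.22 and 0.42, against 0.78, 0.25 and 0.17 with fenofibrate and 0.37, 0.33 and 0.40 in lipid-loaded cells. ACADVL, which starts the oxidation of long chains, stood at 0.16 and 0.39, against 0.94, 0.56 and 0.78 with fenofibrate and 0.80, 0.55 and 0.60 in lipid-loaded cells. CREB3L3, a liver factor that controls triglyceride clearance, stood at 0.03 and −0.06, against 1.35, 0.98 and 1.27 with fenofibrate and 0.94, 1.08 and 0.66 in lipid-loaded cells. Both linalool values lay below all others (linalool minus fenofibrate −1.22, limma adjusted p = 0.813, unadjusted p = 0.000511). SLC25A20, the carnitine carrier, had −0.10 and 0.06 with linalool, and ANGPTL4, an inhibitor of lipoprotein lipase, −0.09 and 0.11. PDK4, which spares glucose by inhibiting pyruvate dehydrogenase, had 0.54 and −0.76, so that the 2 arrays disagreed. Liver fatty acid binding protein, FABP1, had 0.29 and −0.58, against 0.99, 0.78 and 0.89 with fenofibrate and 0.91, 0.51 and 0.82 in lipid-loaded cells. None of the 8 genes fixed as anchors (PPARA, CPT1A, ACADVL, CREB3L3, SLC25A20, ANGPTL4, PDK4 and PLIN2) stood at an unadjusted p under 0.05 against untreated cells.

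Among the receptors themselves, PPARG, the adipocyte relative of PPARα, had 0.86 and 0.57 with linalool, against 0.40, 0.48 and 0.14 with fenofibrate and 0.36, 0.18 and 0.20 in lipid-loaded cells. NR0B2, a repressor of bile acid synthesis, had 0.81 and 0.55, and its values overlapped with both other groups. PPARGC1A, the coactivator of mitochondrial genes, had 1.10 and −0.08.

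Among the 8 anchors, the widest difference between linalool-treated and lipid-loaded cells was that of a lipid droplet gene. PLIN2, the main coat protein of hepatocyte droplets, stood at 0.01 and −0.34 with linalool, against 0.93, 0.97 and 0.40 with fenofibrate and 1.05, 0.93 and 0.86 in lipid-loaded cells. The linalool values lay below all others (linalool minus lipid-loaded −1.11, SE 0.27, limma adjusted p = 0.325, unadjusted p = 0.00156). CIDEC, which fuses droplets, stood at 0.92 and 0.96, against 0.61, 0.58 and 0.82 with fenofibrate and 0.82, 0.80 and 0.37 in lipid-loaded cells. PLIN4, another coat protein, had 0.47 and 0.46 with linalool, against −0.03, −0.33 and −0.08 with fenofibrate and −0.62, −0.72 and −0.06 in lipid-loaded cells. PLIN5, which tethers droplets to mitochondria, had −1.18 and −0.41. PNPLA2, the triglyceride lipase ATGL, had −0.52 and −0.59 with linalool and 0.21, 0.85 and 0.64 in lipid-loaded cells, and its cofactor ABHD5 had 0.54 and 0.41 with linalool and 0.14, −0.01 and 0.47 in lipid-loaded cells. As a list, 20 droplet genes had medians of −0.03 and 0.16, with 4 positive and 1 negative at an unadjusted p under 0.05.

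Lipid synthesis genes had small list medians. Of 23 genes of fatty acid and triglyceride synthesis, 5 were positive and 1 negative at an unadjusted p under 0.05, with medians of 0.16 and 0.19. ELOVL1, an elongase of saturated chains, had 0.60 and 0.51, ACSS2, which makes acetyl-CoA from acetate, 0.55 and 0.44, and FASN, fatty acid synthase, 0.21 and 0.68. FADS2, the delta-6 desaturase, had −0.64 and −1.08 with linalool, against 0.10, −0.63 and −0.67 with fenofibrate and 0.01, 0.47 and 0.38 in lipid-loaded cells. Cholesterol synthesis and uptake genes had medians of 0.19 and 0.15, with 12 of 20 positive and 3 negative on both arrays. At that p stood 0 positive and 2 negative members, MVK and MVD. IDI1, the isomerase that follows MVD, had 0.41 and 0.13, and SC5D, a desaturase near the end of the pathway, 0.48 and 0.18. MVK is described above. MVD, the decarboxylase of the mevalonate arm, had −0.84 and −0.58, against 0.39, −0.19 and 0.57 with fenofibrate and 0.32, 0.67 and −0.01 in lipid-loaded cells. PMVK, the enzyme between them, had −0.07 and −0.29. All 20 members had a lower ratio with linalool than in lipid-loaded cells, against 55.1% of all genes, and 4 of them did so at an unadjusted p under 0.05. A lower ratio was also found for 26 of 27 proteasome, 45 of 49 oxidative phosphorylation and 67 of 78 ribosomal protein genes, so it is not particular to this list. The lipid-loaded arrays had standard deviations from 0.524 to 0.687 over genes, and whether their wider spread plays a part was not tested. Among LXR targets and efflux genes, APOE stood at 0.71 and 0.51, NPC2, a lysosomal cholesterol carrier, at 0.66 and 0.55, and ABCA1, the exporter to lipoproteins, at 0.41 and 0.39.

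Apolipoproteins and lipoprotein genes held members of both signs with linalool. List medians were −0.13 and −0.02 on the linalool arrays. Over group means the median was 0.06 with linalool, of the opposite sign, 0.26 with fenofibrate and 0.65 in lipid-loaded cells. The means of 12 members were positive and of 9 negative, and 5 members were positive and 4 negative at an unadjusted p under 0.05. APOA2 of high-density lipoprotein stood at 1.17 and 0.90 with linalool, against 0.92, 0.73 and 0.90 with fenofibrate and 1.05, 0.55 and 0.85 in lipid-loaded cells. APOA1, the main protein of the same particle, stood at 0.17 and −0.05, against 0.68, 0.59 and 0.83 with fenofibrate and 1.11, 0.94 and 0.91 in lipid-loaded cells. APOA5, which speeds triglyceride clearance, stood at −0.42 and −0.74, against 0.44, 0.11 and 0.36 with fenofibrate and 0.87, 0.75 and 0.48 in lipid-loaded cells. APOC3, which slows it, stood at −0.17 and −0.97, against 0.45, 0.30 and 0.04 with fenofibrate and 0.92, 0.70 and 0.72 in lipid-loaded cells. MTTP, which loads lipid onto APOB, had −0.05 and −0.49 with linalool and 0.89, 0.78 and 0.61 in lipid-loaded cells, while APOB itself had 0.52 and 0.46. LCAT, which esterifies cholesterol on lipoproteins, had −0.86 and −0.55, and APOC1 had 0.83 and 0.43. In the difference from lipid-loaded cells 7 of 21 members were negative and 0 positive at an unadjusted p under 0.05, against 6.14% and 5.43% of all genes.

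**Figure D4:**
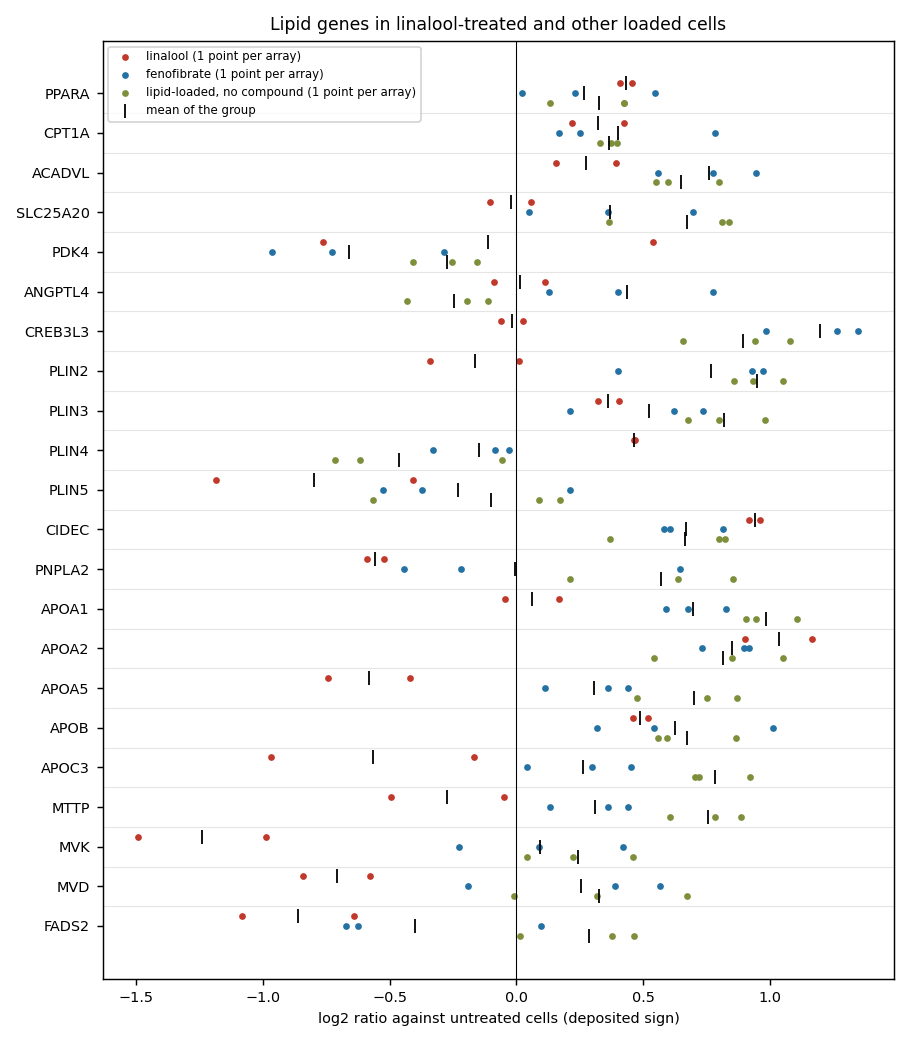
Log2 ratio against untreated cells (x axis, deposited sign) of 22 lipid genes on each array, picked after their values were seen. Points are single arrays and black marks are group means. For CREB3L3, PLIN2, APOA1, APOA5 and APOC3 both linalool points lie below the lipid-loaded points, while APOA2 and CPT1A overlap.

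Genes that handle foreign compounds had 9 positive and 0 negative members of 28 at an unadjusted p under 0.05, with medians of 0.21 and 0.05. Over group means the list median was 0.05 with linalool, 0.11 with fenofibrate and 0.12 in lipid-loaded cells. In the difference from lipid-loaded cells 14 members were positive and 14 negative, with a median of 0.03. At an unadjusted p under 0.05 in that difference stood 2 positive members and 1 negative member. CYP1A1, the classic target of the aryl hydrocarbon receptor, stood at 0.92 and 1.13 with linalool, against 1.12, −0.32 and 0.01 with fenofibrate and 0.24, −0.62 and 0.23 in lipid-loaded cells. AHR, that receptor, had 0.69 and 0.32, and its repressor AHRR −0.25 and 0.29. CYP1A2 had 1.33 and 0.97, but 1.53, 0.96 and 1.20 in lipid-loaded cells. CYP2S1, another member of the family induced by dioxin, had 1.05 and 0.77 with linalool, against 0.06, −0.60 and 0.33 with fenofibrate and −1.26, −0.90 and −0.73 in lipid-loaded cells, so that the groups did not overlap. EPHX1, an epoxide hydrolase, had 0.52 and 0.71. CYP3A4, the main drug oxidase of liver, had 0.26 and −0.66, and NR1I3, the receptor CAR, −0.62 and −0.57.

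Among 21 conjugation genes the arrays differed, with medians of 0.27 and −0.24. UGT1A3, a glucuronosyltransferase, had 1.09 and 1.02 with linalool, against 0.39, 0.25 and −0.13 with fenofibrate and 0.44, 0.34 and −0.06 in lipid-loaded cells. These are averages of 2 probes that differed. The first had 0.58 and 0.91 with linalool and overlapped with lipid-loaded cells, which reached 1.05. The second had 1.60 and 1.14 with linalool and 0.60 at most on the other arrays. MGST1, a membrane glutathione transferase, had 0.81 and 0.77 with linalool and a mean of 0.80 in lipid-loaded cells, while SULT1E1, an oestrogen sulfotransferase, had −0.70 and −0.57. SULT1E1 was lower still in lipid-loaded cells, with −1.97, −1.23 and −1.32, and had −0.98, −0.07 and −0.27 with fenofibrate. In bile acid genes, SLC51B, a subunit of the basolateral bile acid exporter, had 0.81 and 0.76, against 0.51, 0.31 and −0.19 with fenofibrate and 0.54, −0.15 and 0.07 in lipid-loaded cells. CYP27A1, which opens the acidic route of bile acid synthesis, had 0.67 and 0.78, and CYP7A1, which opens the main route, 0.18 and −0.18.

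Secreted hepatocyte proteins had medians of 0.39 and −0.17, with ALB, albumin, at 0.43 and −0.17, AFP, the fetal serum protein, at 0.22 and −0.22, and TF, transferrin, at 0.05 and −0.40. SERPINA1, antitrypsin, averaged 0.50 on both arrays, with probes at 0.51 and 0.33 for the first and 0.48 and 0.68 for the second. KNG1, kininogen, averaged −0.73 on both, while its 3 probes ranged from −0.87 to −0.58 on linalool replicate 1 and from −1.16 to −0.21 on linalool replicate 2. Of the 15 defining markers of HepG2, 13 were measured, with medians of 0.41 and −0.05. A ratio between samples of the same line shows no level, so these markers cannot test the cell type. Whole cultures were measured, so that fewer cells of a type and less RNA per cell cannot be told apart. Stromal, endothelial and blood cell markers had medians of −0.26 and −0.03, with 1 of 22, CD14, at an unadjusted p under 0.05. Markers of neurons and adipocytes had −0.28 and −0.20. Among urea cycle and amino acid genes, TAT, tyrosine aminotransferase, had 0.75 and 0.80 with linalool, against 0.76, −0.16 and 0.08 with fenofibrate and −0.73, −0.25 and −0.17 in lipid-loaded cells. IGFBP1, an insulin and stress responsive secreted protein, had 1.22 and 0.52 with linalool and 0.15, −0.01 and 0.31 in lipid-loaded cells. With fenofibrate it had 0.80, 0.40 and 1.42, with the same mean of 0.87 as with linalool.

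Housekeeping lists were positive with linalool as in the other groups. Ribosomal protein genes had medians of 0.53 and 0.36, with 39 of 78 positive and 3 negative at an unadjusted p under 0.05. Over group means their median was 0.44 with linalool and 0.78 in lipid-loaded cells. Of 27 proteasome genes 25 were positive on both arrays, with medians of 0.50 and 0.41, and of 49 genes of oxidative phosphorylation 41 were, with 0.44 and 0.29. In the last list CYCS, cytochrome c, had −1.17 and −0.57 and NDUFS1, a core subunit of complex I, −0.77 and −0.64. Lysosome genes had medians of 0.44 and 0.41. NEU1, a sialidase, had 0.56 and 0.83, SQSTM1, the autophagy receptor p62, 0.59 and 0.63, and CTSZ, cathepsin Z, −0.98 and −0.74. CTSZ was also negative in lipid-loaded cells, with −0.74, −0.64 and −0.67, and had 0.16, 0.26 and −0.07 with fenofibrate. Histone genes had medians of −0.19 and −0.21, with 36 of 68 negative on both arrays.

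Odorant receptors and ion channels that scents can act on were measured too. Olfactory receptor genes had medians of −0.14 and −0.17, with 6 of 296 positive and 30 negative at an unadjusted p under 0.05, against 6.7% and 5.66% of all genes. OR4X1 had 1.07 and 1.38 with linalool, against 0.51, 0.57 and −0.12 with fenofibrate and −0.10, −0.16 and −0.73 in lipid-loaded cells. OR2T2 had −0.96 and −1.20. TRPV2, a cation channel, had 0.96 and 0.84, and TRPA1, the irritant channel of sensory nerves, had −1.29 and 0.01, so that the arrays disagreed. The cold channel TRPM8 had 0.18 and 0.51.

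**Figure D5:**
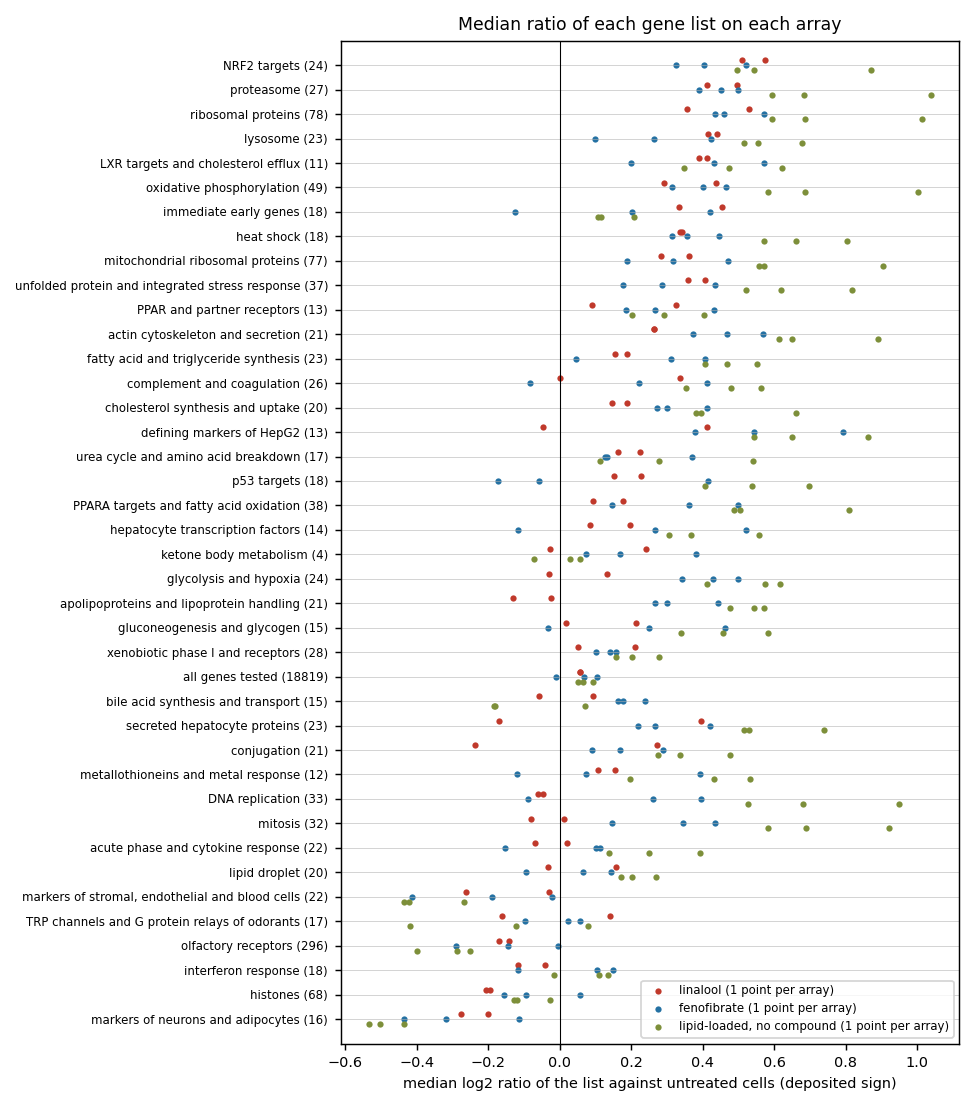
Median log2 ratio of each of 39 gene lists and of all tested genes (x axis, deposited sign), with 1 point per array and the number of measured genes in brackets. Lists run from the highest to the lowest median over linalool means. NRF2 targets stand at the top with 0.51 and 0.57 on the linalool arrays, and most lists have linalool points below the lipid-loaded points.

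Of the 39 lists, mitosis, glycolysis and DNA replication genes had the lowest median differences from lipid-loaded cells. Mitosis genes had medians of 0.01 and −0.08 on the linalool arrays. The median was −0.04 with linalool, against 0.28 with fenofibrate and 0.72 in lipid-loaded cells over group means. Against untreated cells 0 of 32 stood at an unadjusted p under 0.05. In the difference from lipid-loaded cells all 32 were negative, against 55.1% of all genes, and 22 were so at an unadjusted p under 0.05, against 6.14%, with a median of −0.72. DNA replication genes had medians of −0.06 and −0.05 on the linalool arrays, and over group means −0.04 with linalool, against 0.18 with fenofibrate and 0.70 in lipid-loaded cells. Of 33 members, all were negative in the difference and 19 at an unadjusted p under 0.05, with a median of −0.68. None of these genes passed over all genes. In the same difference 26 of 27 proteasome genes and 45 of 49 genes of oxidative phosphorylation were negative. Their medians were −0.29 and −0.31.

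TK1, the thymidine kinase of S phase, stood at −0.54 and −0.29 with linalool, against 0.49, 0.29 and 0.41 with fenofibrate and 1.04, 1.29 and 0.55 in lipid-loaded cells (linalool minus lipid-loaded −1.37, SE 0.28, limma adjusted p = 0.296). BIRC5, survivin, stood at −0.37 and −0.38, against 0.39, 0.17 and 0.24 with fenofibrate and 0.94, 0.98 and 0.29 in lipid-loaded cells. In both genes the linalool values lay below all others. MKI67, the proliferation marker Ki-67, had −0.35 and −0.33, and PLK1, a mitotic kinase, −0.44 and 0.02, with 0.92, 1.09 and 0.48 in lipid-loaded cells. MCM7 of the replicative helicase had −0.21 and −0.16, against 0.43, 0.26 and 0.20 with fenofibrate and 1.02, 0.85 and 0.63 in lipid-loaded cells. Of the DNA replication genes, 15 had a positive mean with linalool and 7 were positive on both arrays. FEN1, which trims the lagging strand, was such a gene, with 0.82 and 0.48 with linalool and 1.12, 0.65 and 0.75 in lipid-loaded cells.

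Glycolysis and hypoxia genes had a median difference from lipid-loaded cells of −0.68 and with 12 of 24 members negative and 1 positive at an unadjusted p under 0.05. ALDOA, an aldolase, had −0.07 and −0.10 with linalool, against 0.73, 0.45 and 0.37 with fenofibrate and 0.90, 1.42 and 0.53 in lipid-loaded cells. SLC2A3, a glucose transporter, had −0.65 and −0.69, and 0.59, 1.25 and 0.24 in lipid-loaded cells. With fenofibrate its probes had values from −0.88 to −0.04, also negative. SLC2A1, the common glucose transporter, went the other way with 0.43 and 0.98, against 0.30, 0.07 and 0.20 in lipid-loaded cells. It had 0.37, 0.62 and 1.10 with fenofibrate, which overlaps with linalool. All 21 genes of actin cytoskeleton and secretion had a lower ratio with linalool than in lipid-loaded cells, as did 26 of 27 proteasome genes.

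In the difference between linalool-treated and lipid-loaded cells, limma called 0 of 18819 genes (0.0%), and 2176 stood at an unadjusted p under 0.05 (11.6%). The median over all genes was −0.06. Of the 5 genes with the smallest p on the positive side, CYP24A1 and CYP2S1 are described above. CBLL2, related to ubiquitin ligases, had 0.76 and 1.16 with linalool, against −0.62, −0.65 and −0.38 with fenofibrate and −0.63, −0.41 and −0.48 in lipid-loaded cells. PLEKHG5 had 1.02 and 1.30 with linalool and −0.94, −0.36 and −0.63 in lipid-loaded cells, and MEGF10, an engulfment receptor, 0.76 and 2.17 with linalool and −1.02, −0.63 and −0.49 in lipid-loaded cells. On the negative side UBD, a ubiquitin-like modifier induced by cytokines, had −0.90 and −0.78 with linalool and 0.95, 0.50 and 0.58 in lipid-loaded cells, and DKK1, a secreted Wnt inhibitor, −0.64 and −0.59 with linalool and 1.19, 0.71 and 0.70 in lipid-loaded cells. AOC3, a vascular amine oxidase, had −0.56 and −0.86, and AP2B1, a clathrin adaptor, −0.72 and −1.11. MVK completes these 5. Each of the 10 had limma adjusted p = 0.296.

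Between linalool- and fenofibrate-treated cells the test called 0 of 18819 genes (0.0%), with 944 at an unadjusted p under 0.05 (5.02%), 470 of them positive (2.5%) and 474 negative (2.52%). The smallest adjusted p was 0.633. Of the genes named, SH3RF1 had the smallest p (linalool minus fenofibrate 1.84, unadjusted p = 7.4e-05), followed on the positive side by CBLL2, RSPO2, GATA1 and BIRC7. GATA1, a factor of blood cell precursors, had 0.02 and 0.69 with linalool and −1.50, −1.88 and −2.57 with fenofibrate. RSPO2, an enhancer of Wnt signalling, had 0.60 and 0.42 with linalool and −1.26, −1.11 and −0.85 with fenofibrate. On the negative side stood SCN8A, GUCY1B1, CREB3L3, ZNF835 and HHEX. HHEX, a homeobox factor of liver development, had −0.40 and −0.63 with linalool, against 0.50, 0.64 and 0.69 with fenofibrate and 0.49, 0.46 and 0.62 in lipid-loaded cells. ZNF835, a zinc finger gene, had −0.83 and −1.17 with linalool and 0.08, 0.35 and 0.36 with fenofibrate.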

How the data were processed

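RNA of 8 HepG2 samples was measured on 2-colour arrays. Per the labels' protocols, 8 µg of RNA was copied into cDNA with oligo(dT) primers, with Cy5 for untreated and Cy3 for treated cells on every array. The authors deposited 1 processed value per probe and array as log2 ratios, for 29187 probes with 4 missing values. What scanner and which background correction or normalization were used is not given in the sources used here. Base 2 was settled from the values: on every array 100% of them lay on the log2 grid of 3-decimal ratios, shifted by a constant, within 0.0001, over ratios from 0.2 to 2, against 21.5% to 30.1% with the sign turned. Scale and centring (means near 0, medians from −0.012 to 0.0865) are known, but the numerator is not. No coordinates of probes were used.

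Symbols came from the platform annotation (25053 probes with 1, 0 with several, 4134 with none), and 24981 were matched by gene identifier with 0 changes. Probes of a gene were averaged, and 18819 of 18821 genes had enough values. limma 3.58.1 (R 4.3.3, with data.table, version 1.17.8) fitted 1 coefficient per group over 8 arrays, two-sided, with 5 residual degrees of freedom. The untreated control's own spread is not in the test, and the labels do not say that replicates came from separate cultures, so p-values measure only the spread between these samples. The script was tested on simulated data. The 39 gene lists are described by counts and medians, without a test. Named were 8 anchors, up to 4 members of each list with the smallest p, the 10 genes of each sign with the smallest p (0 being called) and 5 of each sign for the differences, where probes and arrays shared the sign. Members named beyond this rule were picked after their values were seen. Members and lists were chosen with earlier results of these data known. Alternatives left out each array or changed centring, scaling, normalization, probe rule, moderation, weights or block.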

Additional observations from a re-analysis of the deposited data

Results flagged for a closer look

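Of the 39 gene lists, 2 had medians of opposite sign in linalool-treated cells and in another group on every array. These differences between lists of genes were not tested. The DNA replication list differed from lipid-loaded cells by a median of −0.6759. The apolipoprotein and lipoprotein list differed from lipid-loaded cells by a median of −0.1745 and from fenofibrate-treated cells by −0.1355; over the means of the 2 linalool arrays its median was positive, at 0.06. The groups hold 2 or 3 arrays, too few to look for single outlying samples.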

How the results depend on the processing

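Against untreated cells, limma's count of calls was 0 in the reported setting, with 2326 genes at an unadjusted p under 0.05. It was 124 (65 positive, 59 negative) with arrays scaled to the same spread, 99 (52 positive, 47 negative) with array weights and 1 (RCN2) with 1 probe per gene. Over the settings that left out an array it ranged from 0 to 6: 6 without fenofibrate replicate 3 (RCN2, TIMP1, S100P, ASNS, GUCY1B1 and MT2A), 4 without linalool replicate 1, 2 without linalool replicate 2 and 0 without any of the others. It was 0 with median centring, quantile normalization, robust moderation and the linalool arrays alone. The difference from lipid-loaded cells had 0 calls and ranged from 0 to 1, with CCR8 called without linalool replicate 1. The difference from fenofibrate ranged from 0 to 3, with 3 calls without linalool replicate 1 and 1 without linalool replicate 2. The cause of these shifts was not tested. With the replicate number as a block the count was 0 in each comparison. Same-numbered arrays had correlations of their deviations from the group mean from −0.021 to 0.140. With 2 or 3 arrays in a group, these values cannot settle whether the numbers pair the samples. Lists whose median lay above that of all genes numbered 19 on both arrays, 21 on linalool replicate 2 alone and 28 on linalool replicate 1 alone.

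Signs turned for genes near 0 or with arrays or probes in disagreement. Without linalool replicate 2, the mean was −0.0868 for ANGPTL4, 0.0254 for CREB3L3, 0.0052 for IRF1, 0.5375 for PDK4, 0.0094 for PLIN2 and 0.0036 for UBE2C, against 0.1133, −0.0598, −1.0798, −0.7626, −0.3398 and −0.773 without linalool replicate 1. Without linalool replicate 1 it was −0.229 for BDH1, 0.0596 for SLC25A20 and 0.0115 for TRPA1, against 0.3642, −0.1024 and −1.2881 without linalool replicate 2. ANGPTL4 stood at −0.0347 with median centring, PDK4 at 0.0101 with the block and UBE2C at 0.15 with 1 probe per gene. Of the other recomputed values of named genes against untreated cells, 2705 kept their sign and side of the threshold and 83 newly passed, and all 300 of the differences kept both. List medians were taken here as the mean of the medians of the 2 linalool arrays. They moved by more than 1 SD between those arrays in 48 cases (18 with quantile normalization, 17 with scaling and 13 with median centring). They moved by less in 147. These 147 include every case with 1 linalool array left out, where a shift of 1 SD cannot arise whatever the values. Those cases therefore say nothing about how stable the medians are. The 2 alternatives that need spot brightness were not run, since no brightness was used here.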
